A study of Mus musculus with 6 samples.

Results

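Sirtuins are enzymes that remove acetyl and related acyl groups from proteins, and they consume the coenzyme NAD+ in doing so, which ties their activity to the energy state of the cell. The mouse family has 7 genes, Sirt1 to Sirt7, and each was measured here by 1 probe set, out of 34760 probe sets and 19937 genes on the array. All 7 were taken by gene symbol, but the family was chosen with earlier results of these data known. Sirt3, Sirt4 and Sirt5 act in mitochondria. Sirt1, Sirt6 and Sirt7 are mainly nuclear, with Sirt7 enriched in the nucleolus, and Sirt2 is mainly cytosolic. Across tissues, the mitochondrial members act on enzymes of fatty acid oxidation, the citric acid cycle and ammonia metabolism. In fat, Sirt1 acts on regulators of fat cell identity such as PPARγ and PGC-1α.

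The tissue was inguinal white fat, which lies under the skin and in which heat-producing beige fat cells can arise. They came from 3 Atf7 knockout (KO) mice and 3 wild-type (WT) littermates, all 5-week-old males of the C57BL/6 strain bred from Atf7 heterozygotes, with 1 array per mouse and no treatment named. Atf7 encodes a leucine zipper factor related to ATF2 and CREB5, and the series title places the comparison in fat cell differentiation and thermogenic genes. The KO is named without a Cre driver or a tissue restriction, so effects within fat cells and effects through other tissues cannot be told apart.

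The labels were checked on Atf7 itself. One of its 2 probe sets read 6.22, 6.53 and 6.49 in KO replicates 1 to 3, against 8.95, 9.20 and 9.07 in WT, on the log2 scale of the deposited values. Its adjusted p was 0.00658 with limma over all probe sets, and 0.0745 without WT replicate 1 and 0.147 without WT replicate 3, with the difference at -2.56 or lower without any array. The other Atf7 probe set differed by -0.17, and which exons the allele removes is not given in the sources used here. KO replicate 3 stood apart from the other arrays, correlating at 0.969 to 0.981 with them, where the remaining 5 correlated at 0.984 to 0.990. All 18 measured lymphocyte markers were lower in KO, with a mean level of -0.09, 0.73 and -2.79 in KO replicates 1 to 3, against 0.58 to 0.85 in WT. Skeletal muscle markers varied within both groups, from -1.26 to 1.35 in KO and from -1.27 to 2.0 in WT. White fat markers lay between -0.07 and 0.18 in KO and between -0.17 and 0.11 in WT, so the groups overlapped. They were highest in KO replicate 3 and lowest in WT replicate 3. A level is the average log2 deviation of the listed genes from their own 6-array means. In whole tissue, fewer cells of a type and less RNA per cell cannot be told apart.

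Sirt3 was the sirtuin that differed most between the genotypes and was higher in KO, Sirt7 was lower in KO, and the other 5 lay closer together in KO and WT. No sirtuin passed adjustment over all genes, where limma called 0% of genes at an adjusted p under 0.05. In that fit a gene was its probe set with the highest mean, so Atf7 entered through the probe set that differed by -0.17. Sirt3 and Sirt7 were the 2 of 7 members at an unadjusted p under 0.05, a level that 7.47% of all genes reached, 4.99% as higher and 2.48% as lower in KO. Groups did not overlap for 3 members. Every KO array was above every WT array for Sirt3 and Sirt5, as for 7.96% of all genes, and every KO array was below every WT array for Sirt7, as for 5.97% of all genes. Separation in either direction was seen in 13.9% of genes.

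The start regions of the 3 genes whose groups did not overlap are printed here, because the deleted factor binds DNA and its family recognises the cyclic AMP response element TGACGTCA. The sequences are from RefSeq, build GRCm38.p6, each running 5′ to 3′ on the gene's own strand from 250 bases before the transcript start to 50 bases from it. Capitals mark TGACG, the shorter core of that element, on either strand. They also mark AAGGTCA (a core of sites bound by estrogen-related receptors) and CCGGAA (a core of ETS factor sites), each on either strand. None of these marks overlap in the windows shown.

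Sirt3, chr7:140882260-140882559, minus strand: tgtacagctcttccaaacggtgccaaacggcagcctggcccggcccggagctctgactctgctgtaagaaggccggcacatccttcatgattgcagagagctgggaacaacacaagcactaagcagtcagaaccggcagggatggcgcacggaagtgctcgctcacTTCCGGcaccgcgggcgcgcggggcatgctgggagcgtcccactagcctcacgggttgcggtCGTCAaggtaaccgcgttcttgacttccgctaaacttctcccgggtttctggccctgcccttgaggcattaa

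Sirt5, chr13:43365285-43365584, plus strand: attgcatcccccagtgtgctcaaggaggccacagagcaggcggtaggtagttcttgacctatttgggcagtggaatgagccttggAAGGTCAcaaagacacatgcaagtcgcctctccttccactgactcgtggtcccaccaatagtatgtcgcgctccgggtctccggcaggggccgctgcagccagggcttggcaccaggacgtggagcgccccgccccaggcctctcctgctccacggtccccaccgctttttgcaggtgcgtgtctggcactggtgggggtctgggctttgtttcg

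Sirt7, chr11:120624965-120625264, minus strand: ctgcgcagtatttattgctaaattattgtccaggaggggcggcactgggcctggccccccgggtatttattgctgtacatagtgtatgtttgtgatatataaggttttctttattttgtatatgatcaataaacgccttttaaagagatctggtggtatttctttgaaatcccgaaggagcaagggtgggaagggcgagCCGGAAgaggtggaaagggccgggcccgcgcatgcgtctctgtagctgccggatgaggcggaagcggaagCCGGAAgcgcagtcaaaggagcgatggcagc

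All 7 members had at least 1 such window and they had 9 in all. The full element TGACGTCA was in 0 of the 9, and in 1.79% of all 32851 windows of this length. Its core TGACG was in 3 of them, those of Sirt1, Sirt3 and Sirt4, and in 20.8% of all windows. Sirt3 has a second RefSeq start, with a window at chr7:140881820-140882119 that holds 0 matches of any of these motifs. In the Sirt3 window printed here, TGACG began 22 bases before the start. AAGGTCA was in 1 of the 9 windows, that of Sirt5, against 4.72% of all windows. CCGGAA was in 4 of the 9, from 4 members, against 14.9% of all windows. These are matches of letters in a short window and say nothing about binding.

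**Figure D1:**
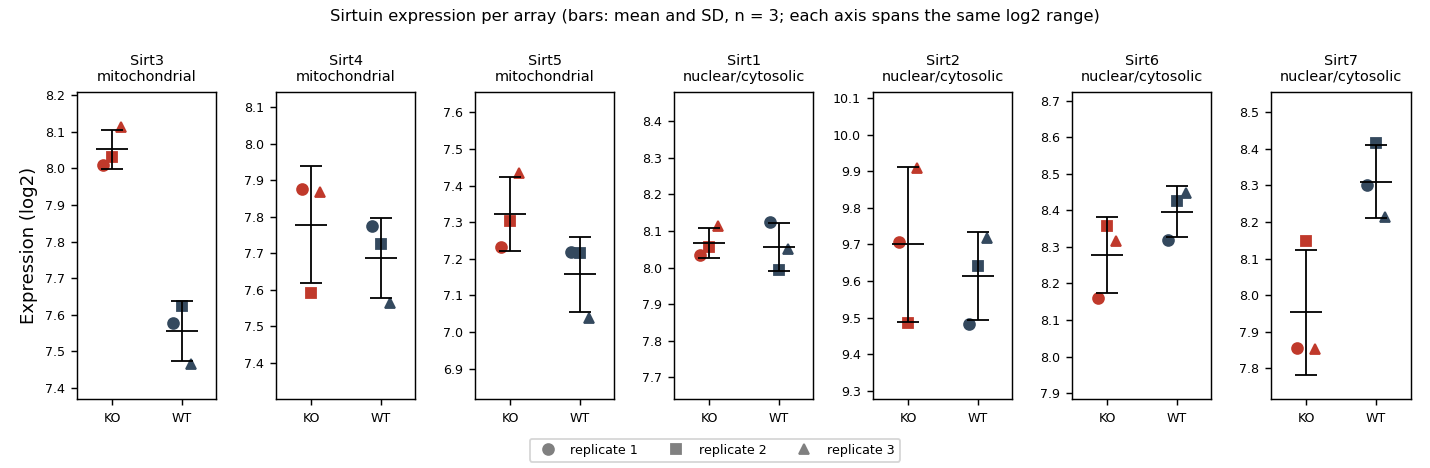
Log2 expression of each sirtuin on each array, with KO on the left and WT on the right of every panel, the mitochondrial members first, bars at the mean and SD (n = 3), and axes that span equal log2 ranges. Sirt3 in KO lies between 8.01 and 8.11, above all WT arrays, and Sirt7 in KO lies between 7.85 and 8.15, below all WT arrays.

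Sirt3 is the main deacetylase of the mitochondrial matrix, and in mice its expression is higher in brown than in white fat. It read 8.01, 8.03 and 8.11 in KO replicates 1 to 3, against 7.58, 7.63 and 7.46 in WT. All 3 KO arrays lay within a narrow band, and the gap to the highest WT array was 0.39. The means were 8.05 ± 0.05 in KO and 7.56 ± 0.08 in WT (SD, n = 3). They differed by 0.50 on the log2 scale (limma SE 0.09, 95% interval 0.29 to 0.70), or 1.41-fold. The unadjusted p was 0.000767 and the adjusted p 0.622 with limma over all genes. By size it was the 309th highest difference of the 19937 genes. KO replicate 2, whose lymphocyte level (0.73) lay inside the WT range, had a Sirt3 value of 8.03, and the difference was 0.47 without KO replicate 3. With the lymphocyte level as a covariate it was 0.45, and with the muscle level it was 0.49. Beyond these fits, the part of lymphocyte or muscle RNA in the Sirt3 difference was not tested.

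One of the 2 RefSeq start regions of Sirt3 is shared with Psmd13, a subunit of the proteasome's regulatory particle that is read in the opposite direction. Between these starts lie 84 bases, and the windows share 184 bases, which include both marked sites of the Sirt3 window. Between the second Sirt3 start and that of Psmd13 lie 524 bases, and its window shares 0 bases with the Psmd13 window. Psmd13 averaged 8.90 ± 0.17 in KO and 8.95 ± 0.03 in WT (SD, n = 3). Its groups overlapped, with a difference of -0.06 (SE 0.11) and an adjusted p of 0.882 with limma. Ric8a, the measured gene on the other side of Sirt3, differed by -0.04. Over all 14 measured neighbours of the 7 sirtuins, differences ran from -0.53 (Rinl, beside Sirt2) to 0.19, and 0 had an unadjusted p under 0.05, against 7.47% of all genes. Herc4, beside Sirt1, was the 1 neighbour whose groups did not overlap, with a difference of -0.16, against 13.9% of all genes without overlap.

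Sirt5 removes succinyl, malonyl and glutaryl groups from mitochondrial proteins, and UCP1 is among its reported targets in mouse brown fat. It read 7.23, 7.30 and 7.43 in KO, against 7.22, 7.22 and 7.04 in WT. The KO arrays were above the WT arrays, but the gap between the groups was 0.01. The log2 difference was 0.17 (SE 0.10, 95% interval -0.07 to 0.40), with an adjusted p of 0.635 with limma. The difference was 0.11 without KO replicate 3 or without WT replicate 3, and 0.09 with the lymphocyte level as a covariate. Lymphocyte markers were lowest in KO replicate 3, the array with the highest Sirt5 value.

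Sirt4 restrains glutamate dehydrogenase and malonyl-CoA decarboxylase. It read 7.88, 7.59 and 7.87 in KO, against 7.77, 7.72 and 7.56 in WT. KO replicate 2 lay among the WT arrays, so the groups overlapped. The difference was 0.09 (SE 0.11, 95% interval -0.18 to 0.36), and its adjusted p was 0.816 with limma. With the lymphocyte level as a covariate the difference was 0.0039.

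Sirt7 deacetylates histone and nucleolar proteins and acts on ribosomal RNA transcription. It read 7.85, 8.15 and 7.85 in KO, against 8.30, 8.42 and 8.21 in WT. KO replicates 1 and 3 lay well below the WT arrays, while KO replicate 2 was 0.07 below the lowest of them. The means were 7.95 ± 0.17 in KO and 8.31 ± 0.10 in WT (SD, n = 3). The log2 difference was -0.36 (SE 0.12, 95% interval -0.63 to -0.09), which is 1.28-fold higher in WT. The unadjusted p was 0.0170 and the adjusted p 0.622 with limma over all genes. The unadjusted p was 0.0630 without KO replicate 1, 0.0580 without WT replicate 2 and 0.0710 with the lymphocyte level as a covariate, where the difference was -0.27. Beyond that fit, the part of lymphocyte RNA in the Sirt7 difference was not tested.

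Sirt6, a chromatin-bound deacylase that acts on histone H3 and on DNA repair, read 8.16, 8.36 and 8.31 in KO, against 8.32, 8.43 and 8.45 in WT. The groups overlapped through KO replicate 2. The log2 difference was -0.12 (SE 0.09, 95% interval -0.34 to 0.10), with an adjusted p of 0.707 with limma.

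Sirt1, which deacetylates PPARγ, PGC-1α and FOXO factors, read 8.03, 8.06 and 8.11 in KO, against 8.12, 7.99 and 8.05 in WT. It had the narrowest spread of the family, 0.13 from the lowest to the highest array. The difference was 0.01 with a 95% interval from -0.19 to 0.21, and 94.2% of genes differed by more.

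Sirt2, which deacetylates tubulin and FOXO1 and restrains fat cell differentiation in mouse cells, read 9.71, 9.49 and 9.91 in KO, against 9.48, 9.64 and 9.72 in WT. Its KO arrays spanned nearly the whole WT range. The difference was 0.09 (SE 0.13, 95% interval -0.22 to 0.40). Without KO replicate 3 it was -0.02, and with the lymphocyte level as a covariate -0.07.

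**Figure D2:**
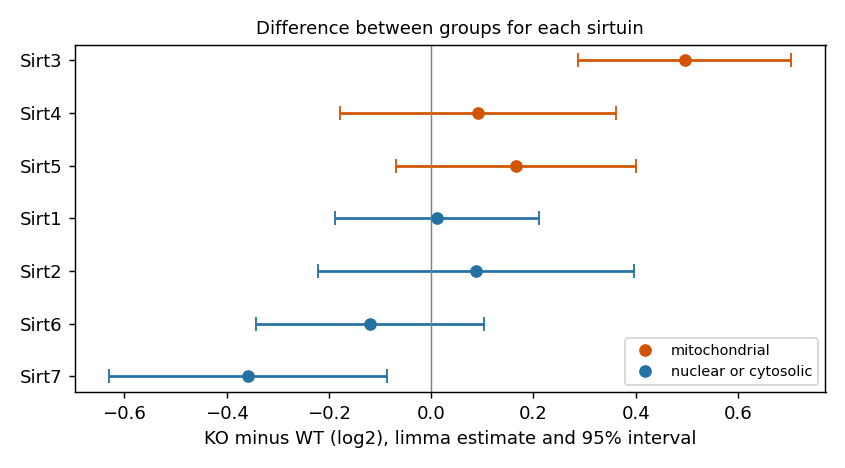
KO minus WT difference of each sirtuin on the log2 scale, as limma's estimate with its 95% interval, with mitochondrial members in orange and the others in blue. The intervals of Sirt3 (0.29 to 0.70) and Sirt7 (-0.63 to -0.09) leave out 0, and the other 5 include it.

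The mitochondrial members were set against the others array by array, using values centred per gene. Their mean was 0.11, 0.05 and 0.21 in KO, against -0.07, -0.07 and -0.24 in WT. For the nuclear and cytosolic members the mean was -0.11, -0.03 and 0.00 in KO, against 0.01, 0.07 and 0.06 in WT. The mitochondrial mean minus the other was 0.22, 0.09 and 0.21 in KO, against -0.08, -0.14 and -0.30 in WT, so the groups did not overlap. KO averaged 0.17 ± 0.08 and WT -0.17 ± 0.11 (SD, n = 3), a difference of 0.35. No p is given, because the members were chosen with earlier results of these data known.

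This contrast rested largely on a single member of each class. It was 0.22 with Sirt3 left out, 0.26 with Sirt7 left out and 0.14 with both left out. With Sirt3 alone left out the groups overlapped narrowly, with KO replicate 2 at -0.0042 and WT replicate 1 at 0.00017. With both left out the arrays read 0.12, 0.01 and 0.07 in KO, against 0.05, -0.02 and -0.24 in WT, and the groups also overlapped. All 3 mitochondrial members had positive differences, with a median of 0.17, while Sirt6 and Sirt7 were negative and Sirt1 and Sirt2 positive, both of the last pair turning negative without KO replicate 3. The median of these 4 was -0.05. Over all genes 53% of differences were positive, with a median of 0.01.

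**Figure D3:**
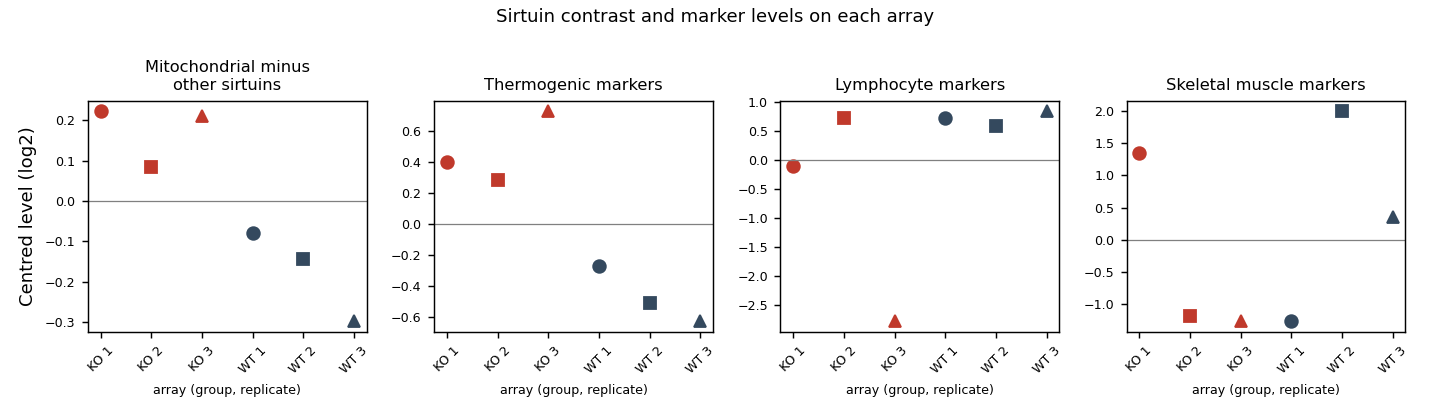
Centred log2 levels on each array, KO arrays left and WT arrays right, for the mitochondrial minus other sirtuin contrast and for thermogenic, lymphocyte and skeletal muscle markers. The contrast is above 0 in the 3 KO arrays and below 0 in the 3 WT arrays, as are the thermogenic markers, while lymphocyte markers lie at -2.79 in KO replicate 3 and muscle markers differ within both groups.

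Thermogenic markers separated the same arrays by their mean level. Of the 10 genes 9 had positive differences, against 53% of all genes, and Elovl3 was lower in KO, at -0.06. The mean level of the 10 was 0.40, 0.29 and 0.73 in KO, against -0.27, -0.51 and -0.63 in WT. KO replicate 3 and WT replicate 3 were thus the extremes for these markers, for Sirt3 and for Sirt5. White fat markers and the reported sirtuin targets described below had the same extremes, so these were not particular to thermogenic genes. The genes whose values ran most like Sirt3 over the 6 arrays, among 9730 genes brighter than the median gene, were Phospho1, a phosphatase of phosphocholine and phosphoethanolamine (Pearson r 0.998), and Yjefn3 (0.995). Phospho1 differed by 1.39 and Yjefn3 by 0.50 between KO and WT on the log2 scale. For Sirt7 they were the cyclin gene Ccnj (0.997) and Fam117a (0.995), with differences of -0.21 and -0.26. For Sirt5 they were Zfp74 (0.999) and Snhg11 (0.997), for Sirt4 Vps9d1 and Anxa8 (both 0.998), and for Sirt2 Tango2 and Elob (both 0.998). For Sirt6 they were Atoh7 (0.989) and Csnk1g2 (0.988), and for Sirt1 Rfxap (0.966) and Nod1 (0.944). These r are the highest of 9730 over 6 arrays, and genes on an array share its tissue composition.

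Genes reported as targets of the mitochondrial sirtuins were higher in KO as a group. Of 22 measured genes, 22 had positive differences, against 53% of all genes. The list was chosen with earlier results of these data known. An unadjusted p under 0.05 was reached by 12, all with higher values in KO, where 4.99% of all genes were so called, and 0 passed adjustment over all genes. The median was 0.36, against 0.01 over all genes. Whether these targets differed more than other mitochondrial genes was not tested. Idh2, the mitochondrial isocitrate dehydrogenase that SIRT3 deacetylates, read 10.23, 10.24 and 10.40 in KO, against 9.87, 9.69 and 9.71 in WT, a difference of 0.53 (SE 0.10). Acadvl and Hadha, enzymes of long-chain fatty acid oxidation, differed by 0.72 and 0.52, and Atp5o, the ATP synthase subunit also known as OSCP, by 0.45. Ucp1, the heat-producing uncoupling protein, which is also among the thermogenic markers, differed by 2.91. The count of 12 was 6 without KO replicate 3, 8 without KO replicate 1, 7 and 6 when WT replicate 1 or WT replicate 3 was left out, and 5 with the lymphocyte level as a covariate. Of the Sirt4 targets named above, malonyl-CoA decarboxylase (Mlycd) differed by 0.45, with an unadjusted p of 0.0311 and every KO array above every WT array. Glutamate dehydrogenase (Glud1), at 0.10, and the Sirt5 target Cps1, carbamoyl phosphate synthetase, at 0.06, did not reach an unadjusted p of 0.05. Cps1 was 1 of 2 targets dimmer than the median gene, with 26.6% of genes dimmer still. For the other, 2.4% of genes were dimmer, so the direction of both is weakly measured.

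Reported targets of the nuclear and cytosolic sirtuins showed no common direction. Of 19 measured genes 11 were positive and 8 negative, with a median of 0.03. At an unadjusted p under 0.05, 2 were higher and 1 lower, which is 15.8% of the list against 7.47% of all genes. The 2 higher genes were Acss2 and Ppargc1a, and Ppargc1a is also counted among the regulators below and the thermogenic markers. Foxo1, a transcription factor deacetylated by SIRT1 and SIRT2, read 9.54, 9.66 and 9.57 in KO, against 9.90, 10.04 and 9.92 in WT, a difference of -0.36 (SE 0.09). Acss2, the cytosolic acetyl-CoA synthetase that SIRT1 activates, differed by 0.43 (SE 0.12). Acly, a SIRT2 target that makes cytosolic acetyl-CoA, and Pparg differed by 0.35 and 0.40, with overlapping groups.

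Among 12 genes that act on sirtuins or on their transcription, 2 were higher and 1 lower at an unadjusted p under 0.05, where 7.47% of all genes reached that level. Ppargc1a encodes PGC-1α, which in mouse cells drives Sirt3 transcription together with the estrogen-related receptor ERRα. It read 8.13, 7.90 and 8.82 in KO, against 7.60, 7.48 and 7.18 in WT, a difference of 0.86 (SE 0.24). Every KO array was above every WT array for it. Its partner Esrra read 8.01, 8.35 and 8.17 in KO, against 7.96, 8.06 and 7.53 in WT, and the groups overlapped (difference 0.33, SE 0.16). Hic1, a repressor of Sirt1 transcription, differed by 0.30 (SE 0.10) beside a Sirt1 difference of 0.01. Psme3, a proteasome activator, differed by -0.27 (SE 0.10), and Senp1, a SUMO protease that acts on SIRT3, by -0.20 (SE 0.10). None of these passed over all genes (adjusted p 0.622 with limma for each).

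NAD+ is the cosubstrate of every sirtuin, and its synthesis genes did not shift together. Of 22 measured genes for synthesis and transport, 10 were positive and 12 negative, with a median of -0.04. At an unadjusted p under 0.05, 2 were higher and 0 lower, or 9.09% of the list, close to the 7.47% of all genes. Naprt, which starts NAD+ synthesis from nicotinic acid, read 7.16, 7.18 and 7.26 in KO, against 6.98, 6.76 and 6.75 in WT, a difference of 0.37 (SE 0.10). Slc25a51, the carrier that brings NAD+ into mitochondria, lay between 9.83 and 10.30 in KO and between 9.55 and 9.77 in WT, a difference of 0.38 (SE 0.14). The KO arrays were above the WT arrays for both genes. Nampt, the rate-limiting enzyme of the salvage route from nicotinamide, read 9.67, 9.76 and 10.16 in KO, against 9.29, 9.93 and 9.24 in WT. WT replicate 2 lay above 2 of the KO arrays for Nampt, and the difference was 0.38 (SE 0.22) with an adjusted p of 0.629 with limma.

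Haao, Afmid and Qprt, enzymes of the route from tryptophan to NAD+, were lowest in KO replicate 3, the array that was lowest in lymphocyte markers. Haao read 8.14, 8.68 and 6.84 in KO, against 8.80, 8.63 and 8.82 in WT, a difference of -0.87 (SE 0.42). Afmid differed by -0.36 and Qprt, whose product enters the common last steps to NAD+, by -0.31. KO replicate 2 overlapped with WT for all 3 genes, none reached an unadjusted p of 0.05, and the part of lymphocyte RNA in these values was not tested. Among 10 measured genes that consume NAD+ or clear nicotinamide, 1 was higher and 0 lower at an unadjusted p under 0.05, close to the 7.47% of all genes. It was Nudt12, a peroxisomal hydrolase of NADH, with a difference of 0.57 (SE 0.23). Sarm1, an NAD+-cleaving enzyme of neurons, differed by -0.23 and Bst1, a cell surface NAD+ glycohydrolase, by -0.50.

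The zinc-dependent histone deacetylases remove acetyl groups without NAD+ and form the other large deacetylase family. Of 11 measured genes 6 were positive and 5 negative, from -0.28 (Hdac11) to 0.19 (Hdac6), with a median of 0.02 and 0 at an unadjusted p under 0.05 in limma, against 7.47% of all genes. Groups did not overlap for Hdac1, at -0.19, Hdac2, at 0.16, and Hdac5, at 0.13, where 13.9% of all genes were so separated.

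**Figure D4:**
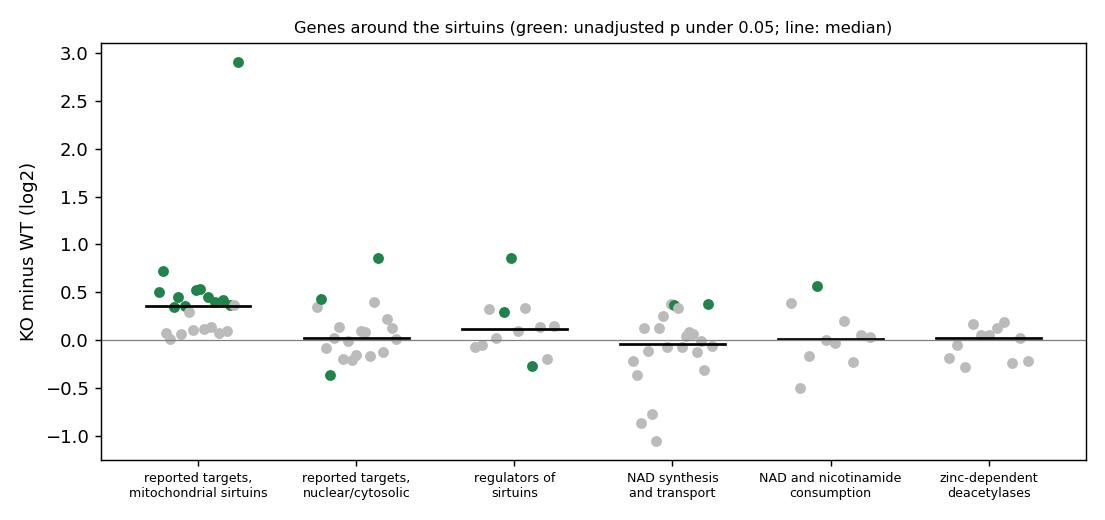
KO minus WT difference of each measured gene in 6 lists, on the log2 scale, with green points at an unadjusted p under 0.05 and lines at the median. Targets of the mitochondrial sirtuins have a median of 0.36 with every point above 0, while the medians of the other 5 lists lie between -0.04 and 0.12.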

How the data were processed

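The deposited table holds 1 log2 value per probe set and array, and per the submitters' processing notes the authors used RMA, affy and limma. RMA corrects background, quantile-normalizes and summarizes probes, so a change common to most of the genes is hidden. Versions and the array annotation build are not given in the sources used here. Values lay between 1.44 and 14.15 and array medians between 6.41 and 6.49. Names came from the platform annotation, where 21640 probe sets had 1 symbol, 1321 several and 11799 none. A gene was its probe set with the highest mean, and 19855 of 19937 genes matched RefSeq (GRCm38.p6) by Entrez identifier. With 1 probe set per sirtuin, isoforms were not separated.

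KO was compared with WT by limma 3.58.1 in R 4.3.3 (lmFit, eBayes, two-sided, no covariate, no filter), with Benjamini-Hochberg adjustment over 19937 genes and a threshold of 0.05. It was tested on simulated data. An exact permutation test of 3 against 3 cannot go below 0.1. The number of arrays limits precision. The members, lists, tests and naming rule were chosen with earlier results of these data known. The rule named all members, Atf7, up to 5 genes of smallest p per list, Nampt, Ppargc1a and Esrra, 2 genes of most similar pattern per member and the nearest measured genes. Glud1, Cps1 and Mlycd were chosen after their values were seen. Marker lists of macrophages and endothelium were also measured: macrophage genes had mean levels of -0.16 to 0.41 in KO and -0.33 to 0.17 in WT, and endothelial genes of -0.02 to 0.18 in KO and -0.30 to 0.02 in WT.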

Additional observations from a re-analysis of the deposited data

How the results depend on the processing

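Sirt3 and Sirt7 kept their direction under the 16 alternatives, with ranges of 0.45 to 0.53 and -0.46 to -0.27. Sirt4, Sirt5 and Sirt6 also kept theirs, while Sirt1 and Sirt2 did not. Sirt1 was -0.047 with array weights, -0.015 with the lymphocyte level and -0.011 with the muscle level as a covariate, and -0.020 to 0.045 without each array in turn. Sirt2 was -0.068 with the lymphocyte level, and -0.017 to 0.195 without each array. Sirt3 (0.45) and Sirt7 (-0.44) passed adjustment in limma with array weights alone (adjusted p 0.0240 for both, against 0.174 or more under the other alternatives). That estimate stopped before it converged and gave KO replicate 1 a weight of 13.4, and it called 1688 genes higher and 1432 lower over all genes (3668 and 3745 at an unadjusted p under 0.05). At an adjusted p under 0.05, averaging probe sets called 1 gene lower and fitting all probe sets 2, where limma over genes called 0 in either direction (995 higher and 494 lower at an unadjusted p). At an unadjusted p, 618 genes were higher and 253 lower with dim genes left out, where fewer genes were tested. The count was 474 higher with the lymphocyte level, 650 higher and 315 lower with the muscle level, and 987 lower with all probe sets, where more were tested. Without each array it ran from 560 (without KO replicate 1) to 2068 higher (without KO replicate 2) and from 192 (without WT replicate 3) to 1689 lower (without KO replicate 2). The mitochondrial minus other contrast kept its sign throughout, at 0.28 to 0.39 without each array. It was 0.22 for members other than Sirt3 and 0.14 for members other than Sirt3 and Sirt7, alternatives chosen after seeing the data. Same-numbered arrays did not deviate together over all genes (correlations -0.14, -0.08 and -0.04). Such correlations cannot show whether same-numbered mice shared a litter or a batch. With the replicate block the sirtuin estimates were the same by construction, with adjusted p of 0.644 for Sirt3 and Sirt7, so no call changed, and 7 targets of mitochondrial sirtuins were at an unadjusted p under 0.05, against 12 without it. Apart from alternatives whose construction shows it, the cause was not tested.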
